A study of Caenorhabditis elegans with 2 samples.

Results

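The neuronal identity and proneural transcription factors of Caenorhabditis elegans were examined as a gene set in a chromatin immunoprecipitation sequencing (ChIP-seq) experiment on SCRT-1, a zinc finger protein of the Snail and Scratch family. The set held 57 genes of the 19973 nuclear protein-coding genes annotated, listed by name as known neuronal regulators when earlier results of these data were already known, and all 57 symbols were found in the annotation. By DNA-binding domain the set held 23 homeobox, 16 basic helix-loop-helix (bHLH), 3 Sox and 5 zinc finger genes, and 10 genes of other families. The samples were 2 biological replicates of whole early embryos at 2 h, obtained by egg bleaching from strain OP802. This strain is an unc-119 (tm4063) mutant that carries the integrated transgene wgIs802, with scrt-1 fused to TY1, EGFP and 3xFLAG tags beside a rescuing unc-119(+) gene. Chromatin was sheared by sonication and precipitated, per the description in the labels, with an anti-GFP antibody, while the antibody field of the labels reads scrt-1. There was 1 group, so no conditions were compared, and no untagged or other-stage sample was analysed here.

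Neurons of C. elegans take on their types through transcription factors known as terminal selectors, many of them homeobox proteins, that bind and activate the batteries of genes for transmitters, receptors and channels of each type. Proneural bHLH proteins act before them, when lineages commit to a neural fate, and SoxB proteins are known for maintaining neural progenitors in many animals. Snail and Scratch family proteins are known mostly as repressors that bind E-boxes such as CAGGTG, and in worms members of this family are known for regulating the death and division of particular neuroblasts.

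A site here is a peak of the authors' conservative list, which is the list from the comparison of both replicates, and a promoter site is one whose summit lay between 1000 bp upstream and 200 bp downstream of any annotated start of the gene. Sites were found at 7 of the 57 genes. A promoter site was present at 6 genes (10.5%, exact 95% interval 3.96 to 21.5), namely daf-19, ceh-34, ttx-1, ceh-2, sox-2 and unc-30, and was present at 597 of all 19973 protein-coding genes (2.99%). A site inside the gene and outside the promoter window was found at 1 of the 57 genes, lin-14 (1.75%), and at 360 of all genes (1.80%). Together the 7 genes made up 12.3% of the set (5.08 to 23.7), and 957 of all genes had a site of either kind (4.79%). The intervals describe counting error only, and genes are not independent replicates, so no test was made of these shares.

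The bases within 50 bp of the summit are printed for 4 of the 7 sites, on the gene's own strand of WBcel235 (ce11), to show what lay under the strongest signal. The windows at ceh-34 and unc-30 overlapped untranslated exons and, like that at ceh-2, are not printed. Capitals mark matches to the motifs searched, on either strand. They are the purine repeat GAGAGA, the GC-box letters GGGCGG, the palindrome spelled GCGCGC, and E-boxes of the form CANNTG. A match on the other strand appears as its reverse complement, such as TCTCTC.
daf-19, chrII:10169508-10169608, minus strand: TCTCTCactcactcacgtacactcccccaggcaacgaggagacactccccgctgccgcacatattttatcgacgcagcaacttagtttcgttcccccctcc
ttx-1, chrV:20061628-20061728, minus strand: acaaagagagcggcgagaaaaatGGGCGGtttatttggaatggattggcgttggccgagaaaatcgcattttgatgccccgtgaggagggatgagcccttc
sox-2, chrX:7460651-7460751, minus strand: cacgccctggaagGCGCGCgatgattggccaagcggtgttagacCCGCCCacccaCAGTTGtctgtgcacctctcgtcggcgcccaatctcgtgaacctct
lin-14, chrX:11467352-11467452, plus strand: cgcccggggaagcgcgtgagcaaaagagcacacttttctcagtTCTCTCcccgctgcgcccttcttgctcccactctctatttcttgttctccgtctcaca
None of these 4 windows held CAGGTG. The sox-2 window held the palindrome, the GC-box letters on the other strand, and an E-box. The ttx-1 window held the GC-box letters, and the daf-19 and lin-14 windows each held the purine repeat on the other strand. The sequences were read from the RefSeq copy of WBcel235.

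Among the factors that act in ciliated sensory neurons, daf-19 had the strongest site of the set. It encodes the RFX factor that switches on genes for building cilia. The site lay at chrII:10169400-10169715, between genes, with its summit 212 bp upstream of the most upstream of 5 annotated starts. The nearest other coding gene start, that of gpd-4, was 1710 bp away. Its peak signal, in the authors' units whose scale is not stated, was 141 in the combined list, 82.0 in replicate 1 and 59.1 in replicate 2. The irreproducible discovery rate (IDR), which is low for peaks that rank both high and alike in the 2 replicates, was 0.000708. Of the 7 sites, it was the one with an IDR under 0.001, and it ranked 319 by signal among the 1211 sites.

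Sites lay at 4 homeobox genes. The sine oculis-class gene ceh-34, a selector of pharyngeal neuron identity, had a site at chrV:5319336-5319651 with a signal of 89.1 and an IDR of 0.00438. Replicate 1 gave 58.5 there and replicate 2 gave 31.3, the widest gap between the replicates among the 7 sites. Its summit lay 83 bp downstream of the single annotated start, in a 5′ untranslated exon. The gene ttx-1, an Otx-type factor needed for the AFD thermosensory neuron, had a site at chrV:20061520-20061835 with a signal of 88.4, an IDR of 0.00245, and 47.7 in replicate 1 against 40.9 in replicate 2. That summit was in an intron, 258 bp upstream of an internal start and 2498 bp downstream of the first of 4 starts.

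The Pitx-type gene unc-30, which specifies the inhibitory GABA motor neurons, had a site at chrIV:13119005-13119320. Its signal was 82.1, with 48.2 in replicate 1 and 32.5 in replicate 2, and its IDR of 0.00525 was the highest of the 7. The summit lay in a 5′ untranslated exon, 73 bp downstream of the nearest of 3 starts.

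The fourth homeobox gene, ceh-2, an empty spiracles homologue that acts in the anterior pharynx, had a site at chrI:6051098-6051413. The signal was 87.5, with 56.7 in replicate 1 and 43.7 in replicate 2, and the IDR was 0.00153. The summit was 805 bp upstream of the ceh-2 start, the farthest of the 6 promoter sites, and lay in an exon of the noncoding RNA C27A12.12 and 20 bp from the start of the tRNA-Leu gene C27A12.t1. None of the other 6 sites had a small RNA gene (tRNA, rRNA, snRNA or snoRNA) beginning within 100 bp. Without all sites that close to small RNA genes, 5 of the 57 genes had a promoter site, beside 2.55% of all genes. Of the 30-base words within the ceh-2 summit window, 69 of 72 occurred once in the genome, against 72 of 72 at each of the other sites.

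The SoxB gene sox-2, which acts in neural progenitors of the larva, had a site at chrX:7460543-7460858. The signal was 82.8, with 46.6 in replicate 1 and 40.3 in replicate 2, and the IDR was 0.00272. The summit lay in an intron 153 bp upstream of an internal start, 3035 bp from the first start, where the noncoding RNAs K08A8.9 and K08A8.5 are also annotated. The other Sox genes had no site: sox-3, also SoxB, had its best candidate at an IDR of 0.763 and sem-2, a SoxC gene, at 0.539.

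The site inside lin-14, the heterochronic regulator known as a target of the lin-4 microRNA, lay at chrX:11467244-11467559, 1842 bp into the gene and in an intron. The signal was 79.4, and the replicates gave 40.7 in replicate 1 and 42.1 in replicate 2 at an IDR of 0.00453. This was the 1 site of the 7 where replicate 2 exceeded replicate 1. The list held a second, overlapping peak there with a signal of 11.0, paired with the same replicate peaks, and the place is counted once. The summit also fell in an exon of the noncoding RNA T25C12.7.

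**Figure D1:**
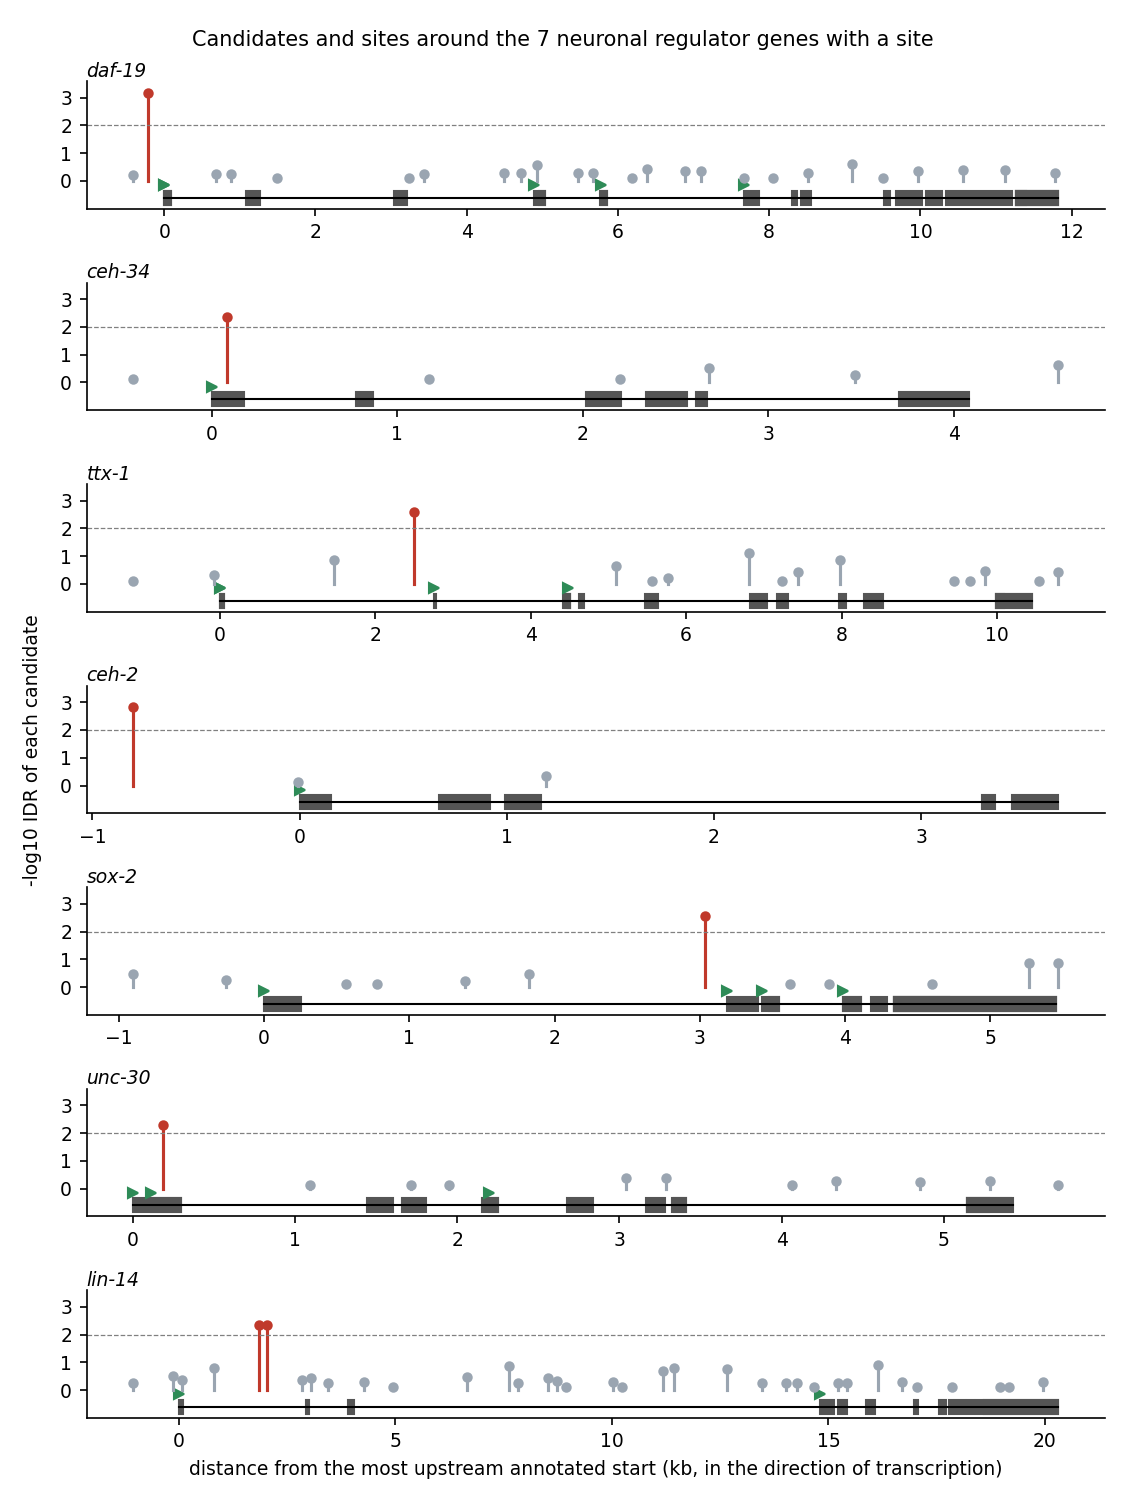
Ranked candidates around the 7 genes with a site. Each panel plots the -log10 IDR of every candidate (vertical axis) by distance in kb from the most upstream annotated start, in the direction of transcription; red stems are sites, grey stems other candidates, green arrowheads annotated starts, boxes exons, and the dashed line an IDR of 0.01. At daf-19, ceh-34 and unc-30 the red stem stands within 300 bp of the first start, at ttx-1 and sox-2 it stands 2498 and 3035 bp into the gene ahead of an internal start, and at ceh-2 it stands 805 bp upstream.

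The signals of the 7 sites lay between 79.4 and 141 with a median of 87.5, against a median of 94.6 over the 1211 sites. The 1211 are all peaks of the list, the second lin-14 peak included, while the 7 count that place once, here and below. Only daf-19 was above the median of all sites. The ratio of replicate 1 to replicate 2 ran between 0.966 and 1.87, with a median of 1.30 at the 7 sites and 1.28 at all sites. The replicates' own summits lay 20 to 58 bp apart at the 7 sites, with a median of 27 bp, and a median of 25 bp apart at all sites.

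Each replicate also had a list of its own. The daf-19 and ceh-2 sites were in the list of replicate 1, so 2 of the 57 genes (3.51%) had a promoter site there, beside 1.46% of all genes. The list of replicate 2 placed a promoter site at 1 of the 57 (1.75%), hlh-14, beside 1.43% of all genes. None of the 7 sites was in the list of replicate 2 and 5 of 7 were in neither list (71.4%), as were 594 of all 1211 sites (49.1%). Away from small RNA genes 254 of 894 sites (28.4%) were in the list of replicate 1 and 240 (26.8%) in that of replicate 2. There 554 of 894 (62.0%) were in neither list. The authors' optimal list, a further list over both replicates, held promoter sites at 5 of the 57 genes (8.77%), beside 3.10% of all genes, and lacked the one at unc-30.

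**Figure D2:**
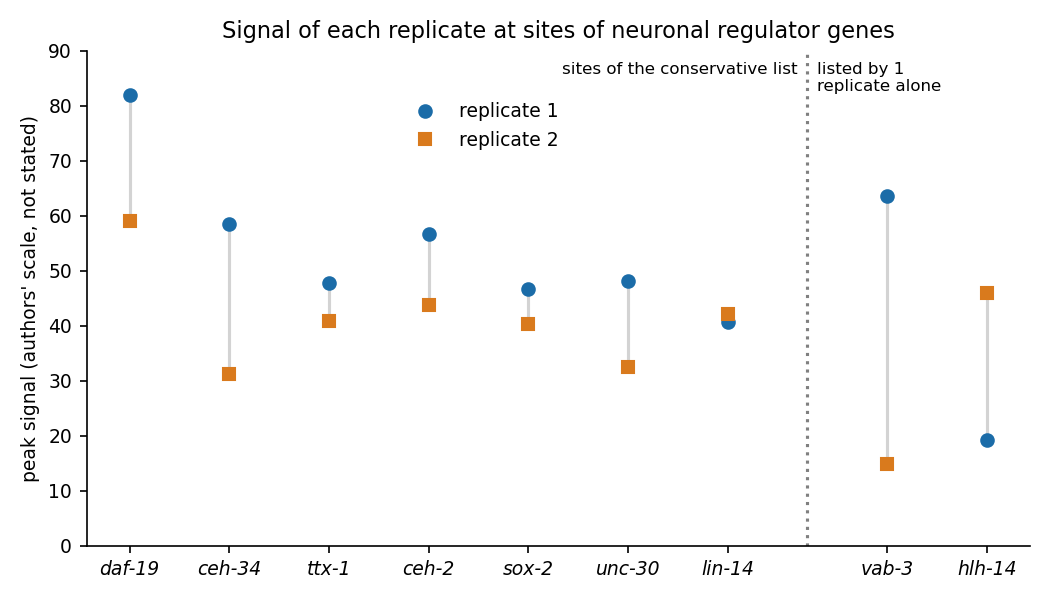
Peak signal in each replicate (vertical axis, in the authors' units) at the sites of 7 neuronal regulator genes and at 2 other places. These 2, right of the dotted line, were listed by a single replicate and absent from the conservative list. Circles are replicate 1 and squares replicate 2; at lin-14 the 2 marks nearly coincide at 40.7 and 42.1, while at vab-3 they stand at 63.6 and 14.8.

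Places listed by a single replicate and absent from the conservative list were found at hlh-14 and vab-3. The hlh-14 gene, an achaete-scute type proneural factor, had a peak at chrII:5738781-5739050 in the list of replicate 2, with an IDR of 0.00822 in that replicate. In the comparison of both replicates that place gave 19.3 in replicate 1, 46 in replicate 2, a 2.39-fold difference, and an IDR of 0.320. The vab-3 gene, the worm Pax6, had a peak inside the gene at chrX:10516196-10516495 in the list of replicate 1 with a signal of 63.6, while replicate 2 gave 14.8 there, a 4.31-fold difference, and the IDR of the comparison was 0.360. Both ratios were larger than at any of the 7 sites. The 7 sites were selected for agreement between the replicates and these 2 places were not, so larger ratios follow in part from the selection.

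The ranked list of 101059 candidates showed how far the other genes were from the threshold. A candidate of any rank was in the promoter window of 46 of the 57 genes (80.7%) and of 13864 of all genes (69.4%). Over these genes the lowest IDR in the window had a median of 0.424 in the set and 0.424 over all genes. At an IDR of at most 0.05 the count in the set was still 6 (10.5%), beside 1223 of all genes (6.12%), since no gene of the set had its lowest IDR between 0.01 and 0.05, where 3.10% of all genes did. Between 0.05 and 0.2 there were 4 genes of the set (7.02%) and 9.58% of all genes, and 11 of the set (19.3%) and 30.6% of all genes had no candidate.

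**Figure D3:**
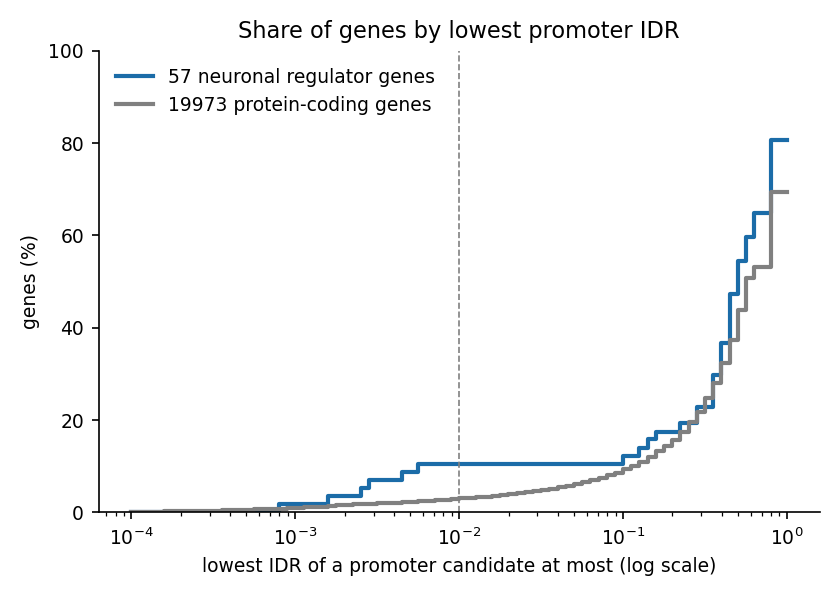
Share of genes (vertical axis, percent) whose lowest promoter IDR was at most the value on the horizontal log axis, for the 57 neuronal regulator genes (blue) and all 19973 protein-coding genes (grey). At the dashed line, an IDR of 0.01, the set stands at 10.5% and all genes near 3%; the lines meet between 0.2 and 0.4.

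The nearest genes below the threshold were selectors of several kinds. The POU homeobox gene unc-86, which specifies touch neurons and many other types, had a candidate at an IDR of 0.0902 and a signal of 59.6, with 26.8 in replicate 1 and 27.9 in replicate 2, 616 bp upstream of a start. The nuclear receptor gene fax-1, which specifies interneurons, followed at 0.115 (signal 51.9). The LIM homeobox gene lim-6 was at 0.137 (48.4) and the TEAD-type gene egl-44 at 0.147 (47). Replicate signals at these 4 candidates, between 20.5 and 31.6, were in replicate 1 below 34.2, the lowest value of any site there. In replicate 2 they were below 27.2, the lowest value of any site there, except at unc-86.

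The next 6 genes with no site had an IDR between 0.213 and 0.339, a range in which the promoter window of lin-14 also had its best candidate, at 0.318 with a signal of 39.9. They were vab-3 at 0.213, lin-32, the atonal-type proneural gene, at 0.261, vab-7, an even-skipped homologue, at 0.266, hlh-14 at 0.320, unc-42, a paired-type factor of command interneurons, at 0.334, and pag-3, a Gfi-type zinc finger gene, at 0.339. The remaining 29 genes with a candidate had their lowest IDR between 0.367 and 0.763, the largest value in the list, with signals of 5.39 to 47.3. Closest among them were the paired-type gene ceh-10 of AIY at 0.367, the AWB olfactory neuron gene lim-4 at 0.372, the zinc finger gene egl-46 at 0.388 and the DMRT gene dmd-4 at 0.393. Between 0.410 and 0.492 lay hlh-2 (0.410), the common partner of proneural bHLH proteins, the nuclear receptor genes unc-55 and nhr-67, the homeobox genes nsy-7, ceh-32, ceh-14 and cog-1, and the bHLH genes hlh-15, hlh-16 and the NeuroD-type cnd-1.

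Higher still were zag-1, a ZEB-type gene, at 0.505, sem-2 at 0.539, the cholinergic motor neuron selector unc-3 at 0.541, the homeobox gene tab-1 at 0.565, the neurogenin gene ngn-1 at 0.578 and the Myt1-type gene ztf-11 at 0.589. The 9 genes at the largest value were the homeobox genes unc-4, ceh-24 and lin-11, the ASE neuron selector che-1, the dopaminergic ETS factor ast-1, sox-3, and the bHLH genes ahr-1, hlh-6 and hlh-34. The 11 with no promoter candidate were the touch neuron LIM gene mec-3, the AIY interneuron LIM gene ttx-3, the Otx-type ceh-36, the distal-less type ceh-43, the T-box gene mab-9, and the bHLH genes hlh-3, hlh-4, hlh-10, hlh-17, hlh-31 and hlh-32. The last 3 are closely related copies, and 74.7% of the 30-base words in the hlh-17 window occurred once in the genome, against 97.5% at hlh-31 and all at hlh-32. The ast-1 and lim-6 windows, which had candidates, were at 76.4% and 79.5%. The median was 100% both in genes of the set with a candidate and in those without. What repeated sequence contributes was not tested.

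**Figure D4:**
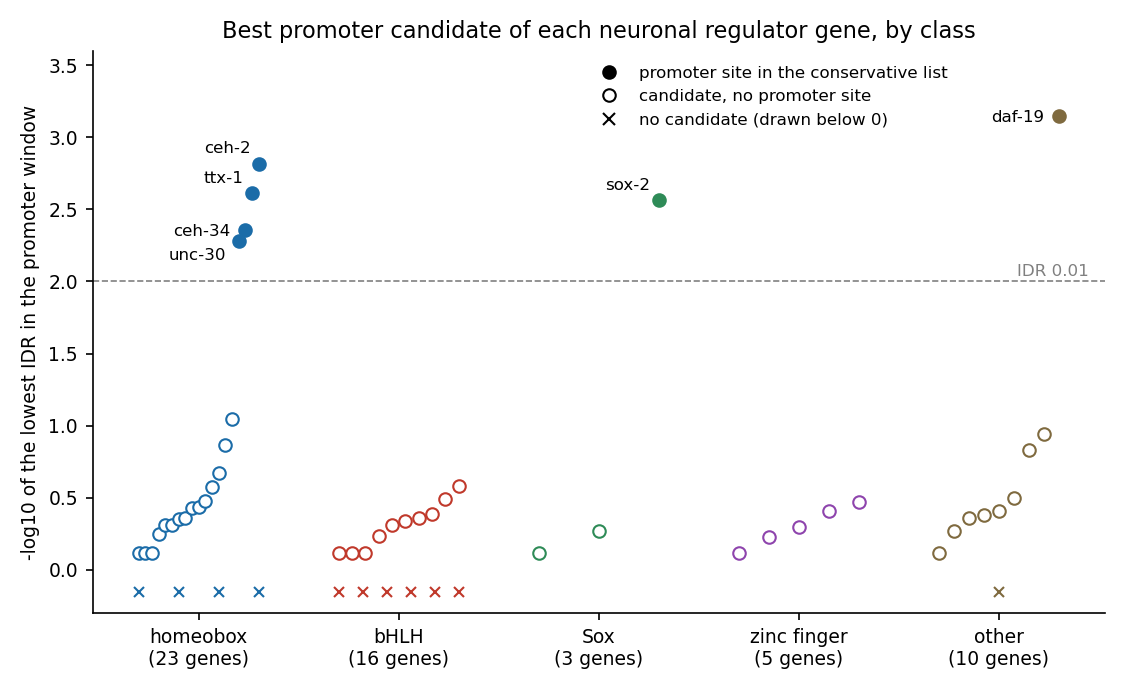
Lowest IDR in the promoter window of each of the 57 genes, as -log10 (vertical axis), by DNA-binding class. Filled circles are promoter sites, open circles candidates with no promoter site, crosses genes with no candidate (placed below 0), and the dashed line an IDR of 0.01; the 6 filled circles are 4 homeobox genes, sox-2 and daf-19, and the bHLH and zinc finger columns have none.

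By class, 4 of the 23 homeobox genes had a promoter site (17.4%, 4.95 to 38.8). None of the 16 bHLH genes had one, which allows a share of up to 20.6%, and none of the 5 zinc finger genes, which allows up to 52.2%. The Sox genes gave 1 of 3 and the other families 1 of 10. The intervals of the classes overlap at these small numbers, and the differences between classes were not tested. Candidates were found at 19 homeobox, 10 bHLH, 3 Sox, 5 zinc finger and 9 other genes, and the lowest IDR of any bHLH promoter was 0.261 (lin-32), that of any zinc finger promoter 0.339 (pag-3). Homeobox genes were longer than bHLH genes, with medians of 4082 bp and 1547 bp. The promoter windows of both classes had a median of 1201 bp. Their upper quartile was 2402 bp for homeobox genes and 1201 bp for bHLH genes.

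Within the homeobox genes, sub-classes drawn up after their values were seen gave 2 of 7 paired-class genes (unc-30 and ttx-1), 1 of 2 sine oculis-class genes (ceh-34, while ceh-32 had its best candidate at 0.444), 1 of 6 ANTP-class genes (ceh-2), 0 of 6 LIM genes and 0 of 1 POU genes. Among the genes of other families, 0 of 3 nuclear receptor genes had a site. The best LIM candidate was the one at lim-6.

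Inside the genes and outside the promoter windows, 3 of the 57 had a candidate at an IDR of at most 0.05 (5.26%), beside 5.36% of all genes. They were lin-14, ast-1 (0.0229, signal 75.6) and vab-3 (0.0314, signal 66.9).

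Genes of the set with a promoter site had more annotated starts and longer windows, by median, than those without one. The 6 genes with one had a median of 3.5 starts, and the 51 without one a median of 1. Of the 11 genes of the set with 3 or more starts, 4 had a promoter site (36.4%), as did 6.32% of all genes with that many. With 1 start the counts were 2 of 34 (5.88%) in the set and 2.34% of all genes, and with 2 starts 0 of 12 in the set and 3.74% of all genes. More starts make a wider window, and per Mb of window there were 61.2 sites in the set and 21.4 over all genes.

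Position and base composition were read at the same places. Of the 6 promoter sites, 5 lay within 300 bp of a start (83.3%), while 51.3% of the gene and site pairs of all genes did. The GC content within 50 bp of the summit ran between 44.6% (unc-30) and 63.4% (sox-2) at the 7 sites, with a mean of 54.7%, against 51% at all sites and 40.1% at all candidates. In the set's genes with a candidate and no site, the best candidate had a median GC content of 43.6%. No site of the set lay in the promoter window of another coding gene.

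The 7 motifs were searched on either strand of the same windows, and CAGGTG was found at 1 of the 7 sites, ceh-2, and at 3.47% of all sites and 3.12% of all candidates. CAGCTG was found at none of the 7 sites, 3.06% of all sites and 2.44% of all candidates. The general form CANNTG, which includes both, was found at 2 of 7 (ceh-2 and sox-2), 36.7% of all sites and 34.2% of all candidates. GAGAGA was found at 3 of 7 (daf-19, ceh-2 and lin-14) and 13.7% of all sites, GGGCGG at 2 of 7 (ttx-1 and sox-2) and 9.91%, and GCGCGC at 1 of 7 (sox-2) and 7.93%. TAATTA, the core letters many homeodomains bind, was found at none of the 7 and 1.49% of all sites.

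Genes of related families outside the set are given beside it. No promoter site was found at the other 55 ceh homeobox genes (up to 6.49%), 13 hlh (up to 24.7%), 24 ztf (up to 14.2%), 9 fkh (up to 33.6%) or 6 elt genes (up to 45.9%). Promoter sites were present at 8 of 268 nhr genes (2.99%, 1.30 to 5.80). Of 25 pan-neuronal genes 0 had a promoter site, of 46 neuron type effector genes 1, acr-2 (signal 73.3), and of 31 embryonic lineage regulators 2, mex-1 (105) and tbx-38 (79.4). The 8 genes of the Snail family and the cell death pathway, among them ces-1, egl-1 and ced-3, had none. Counting sites inside the gene as well, the set had 7 of 57 (12.3%), and the pan-neuronal genes had 4 of 25 (16%), the embryonic lineage regulators 4 of 31 (12.9%), the effector genes 3 of 46 (6.52%), the nhr genes 10 of 268 (3.73%), the ztf genes 1 of 24 (4.17%), and the ceh genes outside the set 0 of 55. The promoter share was thus higher in the set than in each of these lists, but each list's interval overlapped that of the set (3.96 to 21.5). Several lists were small, and 0 of the 25 pan-neuronal genes allows a share of up to 13.7%. The share with a site of either kind was lower in the set than in the pan-neuronal genes and the embryonic lineage regulators. The 4 pan-neuronal genes were unc-104, tbb-1, unc-33 and unc-119. The transgene also carries unc-119, and the unc-33 site lay 26 bp from the start of a tRNA gene. What extra unc-119 copies contribute to this order was not tested. No test of these differences was made.

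**Figure D5:**
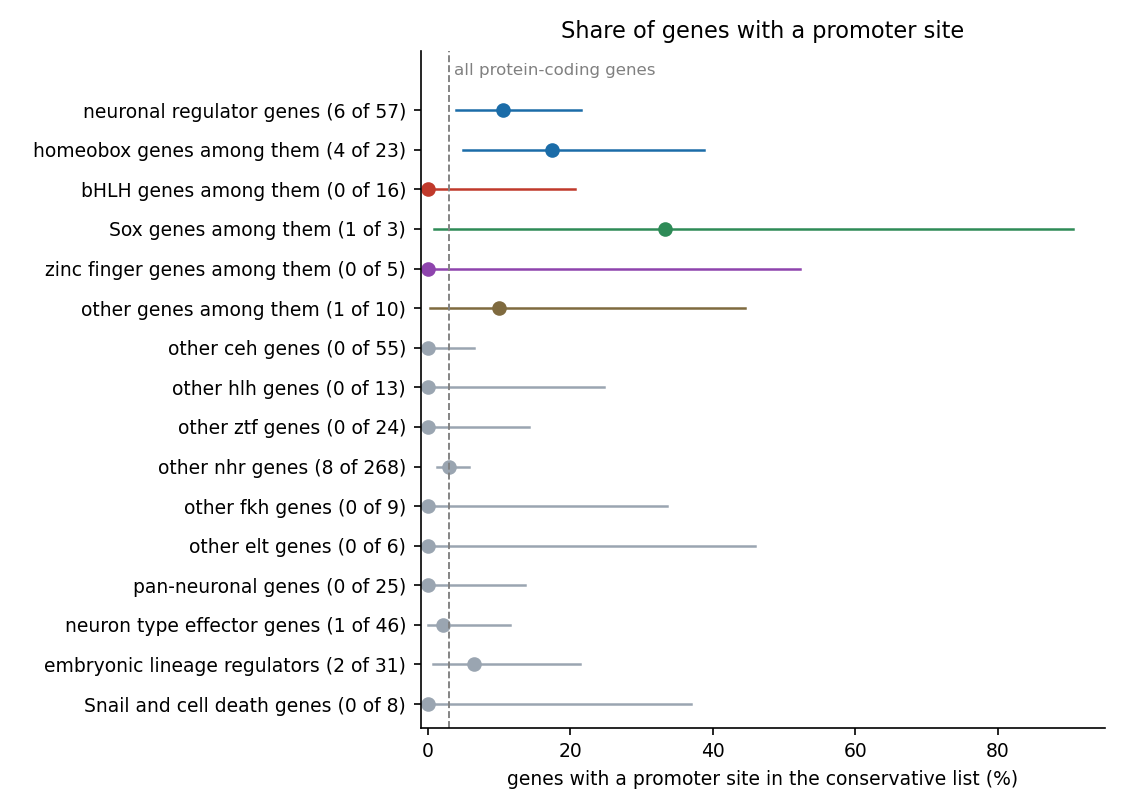
Share of genes with a promoter site (horizontal axis, percent) in the 57 neuronal regulator genes, in their 5 classes, and in 10 other gene lists. Points are shares, lines exact 95% intervals for counting error, and the dashed line is the 2.99% of all protein-coding genes; the set is at 10.5% and its homeobox genes at 17.4%, while the other ceh genes are at 0.

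The depth behind these values is unknown, because the files give no read counts. Precipitated chromatin came from all cells of the embryo, so binding in more cells and more binding per cell cannot be told apart. At the gene of the tagged protein, scrt-1, no candidate was listed in any of the lists used. At unc-119, which the transgene also carries, 13 candidates and 3 sites were listed, the strongest of them at 143 (replicate 1 gave 69.9, replicate 2 gave 84.1), and what extra gene copies contribute there was not tested. The peak lists hold no cell type information, so the labelled tissue, whole embryo, could not be checked against markers.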

How the data were processed

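Anti-GFP ChIP-seq peak lists of 2 biological replicates were used. Per the file headers and notes, the authors made the lists from alignments of the replicates and a control alignment to ce11 (not given in the sources used here: aligner, peak caller, versions). Peak signal is as deposited by the authors, with its scale not stated. The authors' -log10 IDR column was turned into the IDR. The deposited signal columns of the 2 replicates in the ranked list were assigned by exact match of interval and signal: 66.1% of the first were found in replicate 1's own list and 0 in replicate 2's, and 52.9% of the second in replicate 2's and 0 in replicate 1's.

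Gene models were Ensembl release 115 (WBcel235). Windows ran 1000 bp upstream to 200 bp downstream of any start, joined by gene. Small RNA genes counted within 100 bp. Intervals are exact (Clopper-Pearson, 95%). The assignment of peaks to promoter windows was tested on simulated peaks. The genes, lists and classes were chosen with earlier results of these data known. Genes named are those with a site, the 10 with the next lowest IDR, and the rest as groups. Python 3.11.15 with pandas 2.3.3, numpy 2.4.6 and scipy 1.17.1 was used. Other lists, thresholds, windows and each replicate alone were tried as alternatives.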

Additional observations from a re-analysis of the deposited data

How the results depend on the processing

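The 6 genes with a promoter site (10.5%, beside 2.99% of all genes) became 1 (daf-19, 1.75%, beside 1.01% of all genes) at an IDR of at most 0.001, and ranged from 1 to 2 with a single replicate, 1 (hlh-14) without replicate 1 and 2 (ceh-2 and daf-19) without replicate 2. The count was 5 in the optimal list (8.77%, without unc-30, beside 3.10% of all genes), 6 at an IDR of at most 0.05 (beside 6.12% of all genes), 6 by overlap of at least 1 bp (3.32%), 5 without sites at small RNA genes (2.55%) and 5 with 500 bp upstream (2.15%), both without ceh-2, 6 with 2000 bp upstream (4.28%), and 4 with the most upstream start alone (2.65%, without ttx-1 and sox-2). The gene with a site inside, lin-14, was joined by vab-3 in the optimal list (2 genes, beside 1.93% of all genes). At an IDR of at most 0.05 it was joined by vab-3 and ast-1 (3 genes, 5.26%, beside 5.36% of all genes). The vab-3 candidate there, at 0.0314, was another place than the vab-3 peaks of the optimal list, at 0.360 and 0.129. The count was 0 at an IDR of at most 0.001 (beside 0.651% of all genes). It was 0 without replicate 1 (beside 0.801% of all genes). Without replicate 2 it was 1 (beside 0.851%), namely vab-3 at the place with an IDR of 0.360. Genes with any candidate numbered 43 with 500 bp upstream (beside 58.1% of all genes), 32 without replicate 1 (52.3%) and 40 without replicate 2 (59.9%). Class counts were the same with zag-1 among the homeobox genes, ahr-1 and hlh-34 left out of the bHLH genes and sem-2 out of the Sox genes, and CAGGTG stayed at 1 of 7 sites in whole peaks. With 2 replicates of 1 group and no read counts, peak lists limit the precision. No paired analysis was possible because there is 1 group and no comparison between groups.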

Other observations

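Among the genes of the set with no site and no candidate at an IDR of at most 0.05, the lowest IDR inside the gene was at ceh-43, which had no promoter candidate, with 0.0547 and a signal of 54.1, followed by vab-7, the even-skipped homologue, with 0.0581 and a signal of 63.5, sem-2 with 0.0687 and 52.8, and the ZEB-type gene zag-1 with 0.0887 and 51.2. The lengths of ast-1 (7523 bp), vab-3 (19691 bp) and lin-14 (20312 bp) were above the median of the set, 3664 bp, and that of all genes, 2027 bp.

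Among genes that neurons use, sites inside the gene were listed for the kinesin gene unc-104 (signal 432, at a pseudogene), the monoamine transporter gene cat-1 (463) and the axon growth gene unc-33 (280), the last 2 at tRNA-Ser and tRNA-Arg genes within 26 bp. The sensory channel gene osm-9 had one of 171 in an intron, 1 bp from the start of a small RNA gene, and the tubulin gene tbb-1 had one of 76.8 in a coding exon. The strongest promoter sites of nhr genes, at nhr-255 (372) and nhr-41 (304), lay at tRNA-Leu and tRNA-Glu genes, while those at nhr-95 (99.7) and nhr-142 (91.8) lay between genes.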
